A study of Mus musculus with 14 samples.

Results

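The genes described here are the Myc family members Myc and Mycn, the D-type cyclins Ccnd1, Ccnd2 and Ccnd3, the E-type cyclins Ccne1 and Ccne2, the cyclin D kinases Cdk4 and Cdk6, and the retinoblastoma gene Rb1. They were taken by symbol from the probe annotation of the array, which gave 11 probes for the 10 genes, 2 of them for Cdk6, out of 22575 probes and 16879 named genes. All 11 probes had a value on every array. The samples were mammary tumours of mice heterozygous for Brg1 (Brg1+/-), which encodes the motor subunit of SWI/SNF, a complex that moves nucleosomes. There were 12 tumours on 14 two-colour arrays, with tumour RNA in Cy5 and a mouse reference RNA in Cy3. T172 and T284 had a second array each, which the labels call a biorep, and their 2 arrays were averaged. The series has 1 genotype and no normal mammary tissue among these arrays, so tumours were compared with each other. The labels do not give the animals' age or strain, the allele of Brg1, or what the word MIXED in every label stands for. Whether each tumour came from a separate animal is not stated either, so p-values measure only the spread between these samples, which may be technical.

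Cells enter the division cycle when growth signals raise the D-type cyclins, which bind the kinases Cdk4 and Cdk6 and start the phosphorylation of the retinoblastoma protein. E-type cyclins with Cdk2 complete that step, E2F factors are released, and the genes of DNA replication are switched on. Myc, a transcription factor that binds DNA with its partner Max, drives growth and ribosome synthesis, and it is a classical oncogene of the mouse mammary gland, as is cyclin D1.

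Each value below is a log2 ratio of tumour over reference RNA, where 1 unit is a 2-fold difference and 0 is equal to the reference. The base of the logarithm was inferred from the values and the direction from the dyes. A level above or below 0 compares a tumour with the reference RNA, whose composition is not given, and not with normal gland. Every array had the tumour in Cy5, so a probe's dye effect and a difference from the reference cannot be told apart. Ratios of different genes were not set against each other as levels. The 2 probes of Cdk6 were averaged, and they are also given apart. The number of arrays limits the precision.

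The arrays had values for 22501 to 22566 probes, and their medians lay between 0 and 0.018. Luminal epithelial markers had mean ratios above the reference in 9 of 10 cases. T176 stood apart. Against the other 11 tumours, 9 of 10 luminal markers were called in T176, 8 of them at their lowest there (Krt18 was -4.25) and Esr1 at its highest. The fibroblast and matrix genes Col1a1, Col1a2 and Fap (1.89, 2.17 and 2.82) and the macrophage marker Cd68 (2.81) were also called, each at its highest in T176. The fibroblast list was not of one direction in T176. Pdgfra (0.88) was also at its highest in T176, but Postn (-4.24) and Thy1 (-2.19) were at their lowest. The fibroblast score was highest there, at 1.54, and the macrophage score lowest, at -1.23, and the part of these cells in the values of T176 was not tested. In T176, 2.48% of 16823 genes were called higher and 1.34% lower, while in each of the other tumours no more than 0.136% were called in either direction. In bulk tumour RNA, fewer cells of a type and less RNA per cell cannot be told apart.

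Across the 12 tumours, 6 of the 10 genes differed by more than the spread within a tumour, namely Ccnd2, Ccnd1, Cdk6, Rb1, Ccne2 and Myc. Mycn and Ccnd3 were the flattest, and Ccne1 and Cdk4 varied without passing the test. The test was limma's moderated F-test over all 16877 genes in the fit, called at a Benjamini-Hochberg adjusted p under 0.05, and it called 18.4% of all genes. The median SD over tumours was 0.71 among the 10 genes and 0.39 among all genes. Only T172 and T284, with 2 arrays each, give that spread within a tumour. On their 4 arrays alone, T284 against T172, 0 of the 10 genes were called beside 1.37% of all genes. A count of 5 to 7 of the 10 genes was called when each tumour was left out in turn.

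**Figure D1:**
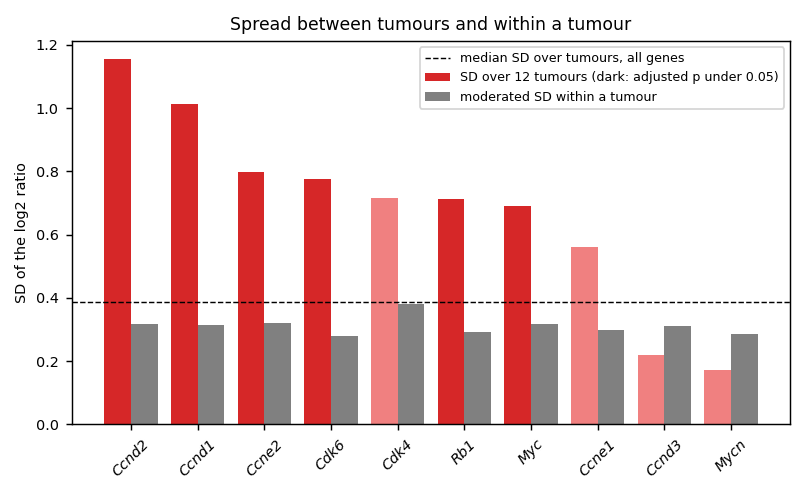
SD of the log2 ratio for each of the 10 genes, over the 12 tumours (red, dark where the F-test's adjusted p was under 0.05) and within a tumour as moderated by limma (grey). The dashed line is the median SD over tumours of all genes, 0.39; Ccnd2 and Ccnd1 have the widest bars, 1.16 and 1.01, and Mycn and Ccnd3 lie below the line.

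Myc was above the reference in all 12 tumours and at least 2-fold above it in 9. Its log2 ratio was 2.49 in T2134, 2.47 in T160, 2.32 in T920, 2.16 in T372, 1.91 in T55, 1.71 in T2023, 1.63 in T221, 1.22 in T135, 1.06 in T172, 0.75 in T284, 0.72 in T646 and 0.68 in T176. T2134, T160, T920 and T372 thus formed the upper end, and T176, T646 and T284 the lower end. The mean was 1.59 ± 0.69 (SD, n = 12 tumours) and the highest tumour had 3.50 times the level of the lowest. The F-test gave Myc an adjusted p of 0.0425 in limma, close to the threshold. The call was lost when any 1 of 4 tumours was left out, with adjusted p-values of 0.0530 without T160, 0.0552 without T176, 0.0556 without T2134 and 0.0503 without T284. The 2 arrays of T284 read 1.01 and 0.50, a difference larger than any gap between neighbouring tumours in the order of Myc.

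Mycn, the family member best known from neural tumours and embryonic tissue, stayed close to the reference. It ranged from -0.23 in T284 to 0.44 in T920, with a median of 0.02, a mean of 0.01 ± 0.17 (SD, n = 12) and an adjusted p of 0.964 in limma's F-test. Both arrays of T284 were below 0, and no tumour lay 2-fold from the reference in either direction. Without a background level, these ratios do not show whether Mycn RNA was detected in the tumours or in the reference.

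Of the 3 D-type cyclins, which all partner Cdk4 and Cdk6, Ccnd2 and Ccnd1 differed between tumours and Ccnd3 did not pass the test. Ccnd2 varied the most and was below the reference in all 12 tumours, at least 2-fold below it in 11. Its log2 ratio was -0.76 in T2023, -1.05 in T646, -1.05 in T135, -1.23 in T372, -1.72 in T221, -2.71 in T920, -2.79 in T55, -3.02 in T160, -3.26 in T2134, -3.40 in T172, -3.76 in T284 and -3.91 in T176. T2023, T646, T135, T372 and T221 thus lay above the other 7 tumours, and the gap between T221 and T920, at 0.997, was the widest between neighbours for any of the 10 genes. The highest tumour had 8.87 times the level of the lowest, and the F-test gave an adjusted p of 0.00256 in limma. Without T176 the adjusted p was 0.00378.

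Ccnd1, the cyclin most often overproduced in breast cancer, was above the reference in 9 tumours. Its log2 ratio was 2.20 in T2023, 2.13 in T646, 1.97 in T176, 1.71 in T135, 1.51 in T372, 1.13 in T172, 1.12 in T920, 0.39 in T221, 0.23 in T284, -0.06 in T160, -0.50 in T55 and -0.60 in T2134. T160, T55 and T2134 were the 3 tumours below the reference, and 7 tumours were at least 2-fold above it. The highest tumour had 6.97 times the level of the lowest, with an adjusted p of 0.00696 in limma's F-test. T176 was 3rd for Ccnd1 and last for Ccnd2, while T2023 and T646 were the top pair for both cyclins.

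Ccnd3 was below the reference in all 12 tumours by a nearly constant amount. It ranged from -1.22 in T221 to -0.54 in T920, with a median of -0.89 and a mean of -0.87 ± 0.22 (SD, n = 12), and the F-test gave an adjusted p of 0.940 in limma. Its SD over tumours, 0.22, was below the moderated SD within a tumour, 0.31.

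**Figure D2:**
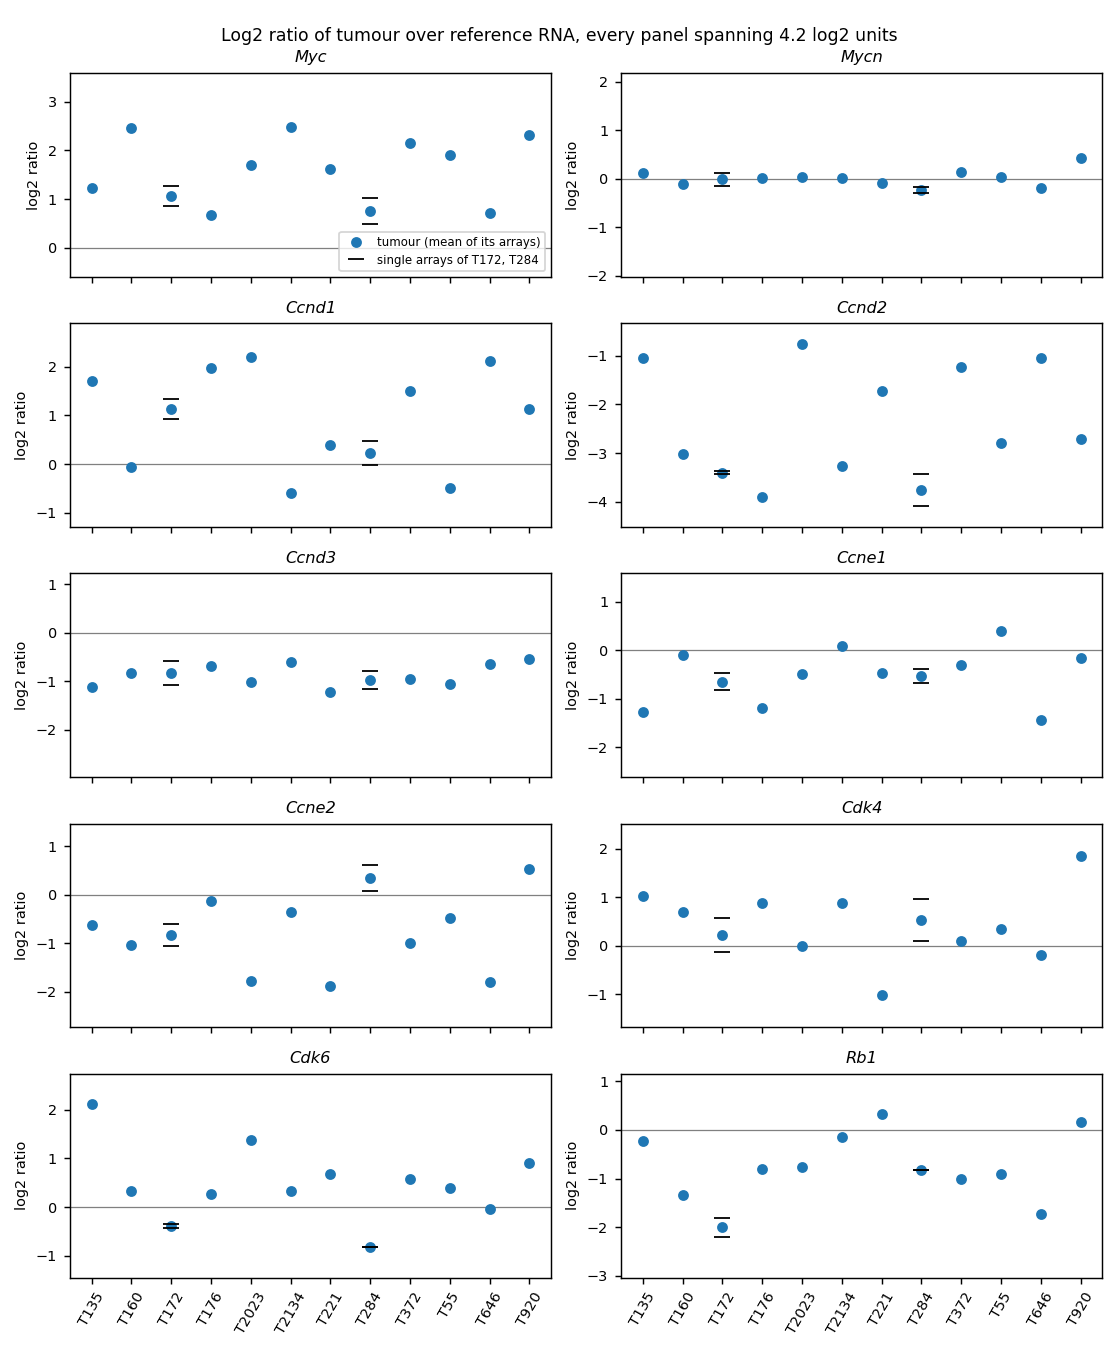
Log2 ratio of tumour over reference RNA for each of the 10 genes in the 12 tumours. Dots are tumours, dashes are the single arrays of T172 and T284, and the grey line is 0; each panel spans the same number of log2 units, so that the wide scatter of Ccnd2 (-3.91 to -0.76) can be set beside the flat rows of Mycn and Ccnd3.

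The catalytic partners of the D-type cyclins also varied. Cdk4 had a log2 ratio of 1.84 in T920, 1.03 in T135, 0.87 in T2134, 0.87 in T176, 0.70 in T160, 0.53 in T284, 0.35 in T55, 0.22 in T172, 0.09 in T372, 0.00 in T2023, -0.19 in T646 and -1.01 in T221. T920 and T221 were the ends, and the level in T920 was 7.20 times that in T221. Its F-test missed the threshold, with an adjusted p of 0.119 in limma. The 2 arrays of T172 (0.57 and -0.14) and of T284 (0.96 and 0.10) differed by more than for any other of the 10 genes. Cdk4 was called without T172 (adjusted p = 0.0178), with either single array of T172 left out, and after quantile normalization (adjusted p = 0.0450).

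The Cdk4 promoter is shown because the motif that Myc and its relatives bind, the E-box CACGTG, occurs in it several times. RefSeq (GRCm38.p6) promoters could be matched for 5 of the 10 genes, Cdk4, Cdk6, Ccne1, Mycn and Ccnd3, the last with 2 start sites, and the 250 bases before each start were searched on both strands. Below are Cdk4 (chr10:127063285-127063534, plus strand), Cdk6 (chr5:3343643-3343892, plus strand) and Ccne1 (chr7:38107491-38107740, minus strand), each 5′ to 3′, with CACGTG in capitals.
Cdk4: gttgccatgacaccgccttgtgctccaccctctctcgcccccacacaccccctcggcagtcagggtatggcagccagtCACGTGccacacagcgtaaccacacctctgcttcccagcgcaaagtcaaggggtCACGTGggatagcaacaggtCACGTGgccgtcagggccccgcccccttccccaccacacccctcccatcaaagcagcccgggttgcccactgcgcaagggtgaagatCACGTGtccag
Cdk6: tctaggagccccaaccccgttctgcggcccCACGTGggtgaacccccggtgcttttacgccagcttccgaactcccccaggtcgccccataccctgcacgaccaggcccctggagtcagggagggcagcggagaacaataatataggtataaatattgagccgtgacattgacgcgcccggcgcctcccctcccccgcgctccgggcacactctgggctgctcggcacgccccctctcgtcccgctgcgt
Ccne1: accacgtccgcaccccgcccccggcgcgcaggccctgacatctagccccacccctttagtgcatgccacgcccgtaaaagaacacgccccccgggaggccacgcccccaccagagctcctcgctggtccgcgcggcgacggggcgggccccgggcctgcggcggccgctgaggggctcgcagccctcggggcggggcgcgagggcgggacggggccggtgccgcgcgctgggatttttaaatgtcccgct
CACGTG reads the same on both strands. It was found 4 times in the Cdk4 promoter, with first bases at -172, -118, -98 and -11 from the start, once in Cdk6, at -220, and in none of the Ccne1, Mycn and Ccnd3 windows. Of 32851 promoters of the same length, 6.02% held at least 1 CACGTG and 7 (0.0213%) held 4 or more. The E2F-type sites TTTCCCGC, TTTCGCGC, TTTGCCGC and TTTGGCGC were found 3 times in Mycn, 2 of them overlapping, at -183, -179 and -168, and in 1.86% of all promoters. None of the other windows held one. These matches describe letters in the window. Over the tumours, Cdk4 and Myc gave r = 0.236 and rho = 0.287, which were not called (adjusted permutation p = 0.679 and 0.598, 12 tumours).

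Cdk6, as the mean of its 2 probes, was above the reference in 9 tumours. Its log2 ratio was 2.12 in T135, 1.39 in T2023, 0.91 in T920, 0.68 in T221, 0.57 in T372, 0.39 in T55, 0.33 in T2134, 0.33 in T160, 0.26 in T176, -0.05 in T646, -0.39 in T172 and -0.82 in T284. T135 and T2023 were the highest pair and T172 and T284 the lowest. The 2 arrays read -0.36 and -0.43 in T172, and -0.83 and -0.81 in T284. In T284 the probes moved in opposite directions from the first to the second array. Probe 13685 read -2.13 and -1.84 there, and probe 16720 read 0.47 and 0.21. In the mean of the probes, the level in T135 was 7.71 times that in T284, with an adjusted p of 0.00811 in limma's F-test.

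The 2 Cdk6 probes disagreed, however. In the annotation, probe 16720 carries a RefSeq transcript of Cdk6 and probe 13685 a sequence record outside RefSeq. Probe 13685 ranged from -1.98 in T284 to 2.42 in T135 (SD 1.22 over 12 tumours) and was called with an adjusted p of 0.000777 when every probe was fitted in limma by itself. Probe 16720 ranged from 0.13 in T172 to 1.83 in T135 (SD 0.47) and was not called, with an adjusted p of 0.215. It was thus above the reference in all 12 tumours, with T284 at 0.34 beside its median of 0.31. T135 was the highest tumour for both probes. The probes correlated at r = 0.611 over 12 tumours and 0.465 without T135, given as a description. The value of Cdk6 as a gene is the mean of both.

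Among the E-type cyclins, which activate Cdk2 at the entry into S phase, Ccne2 differed between tumours and Ccne1 did not pass the test. Ccne2 had a log2 ratio of 0.53 in T920, 0.34 in T284, -0.14 in T176, -0.36 in T2134, -0.49 in T55, -0.63 in T135, -0.82 in T172, -0.99 in T372, -1.05 in T160, -1.78 in T2023, -1.79 in T646 and -1.88 in T221. T920 and T284 were the only tumours above the reference, and T2023, T646 and T221 were set below the rest by 0.73. The level in T920 was 5.32 times that in T221, with an adjusted p of 0.0220 in limma's F-test. Ccne1 had a log2 ratio of 0.40 in T55, 0.08 in T2134, -0.09 in T160, -0.17 in T920, -0.30 in T372, -0.48 in T221, -0.49 in T2023, -0.54 in T284, -0.65 in T172, -1.19 in T176, -1.27 in T135 and -1.45 in T646. T176, T135 and T646 were the lower end, and its adjusted p was 0.119 in limma, or 0.0341 after quantile normalization.

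Rb1, the pocket protein that holds E2F factors inactive until the cyclin-dependent kinases phosphorylate it, was below the reference in 10 tumours. Its log2 ratio was 0.32 in T221, 0.16 in T920, -0.15 in T2134, -0.23 in T135, -0.76 in T2023, -0.81 in T176, -0.82 in T284, -0.91 in T55, -1.004 in T372, -1.35 in T160, -1.73 in T646 and -2.00 in T172. T172 was low on both arrays, at -2.20 and -1.81, and T646 was next. The highest tumour had 5.01 times the level of the lowest, with an adjusted p of 0.0197 in limma's F-test. These ratios carry no background level, so they do not show whether Rb1 RNA was absent from any tumour.

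No gene's neighbours in the order of tumours differed by more than the 95% interval of a difference between 2 tumours, taken from the moderated spread within a tumour. For tumours with 1 array each, that interval was ± 1.01 for Myc and Ccnd2 and ± 1.21 for Cdk4. Tumours farther apart in the order did differ by more than it. Of the 66 pairs of tumours, 38 did so for Ccnd2, 37 for Ccnd1, 30 for Cdk6, 29 for Ccne2, 28 for Rb1, 24 for Myc, 19 for Ccne1, 15 for Cdk4 and 0 for Mycn and Ccnd3. These intervals were not adjusted over the pairs, and the same count was not taken over all genes. Ccne1 and Cdk4 did not pass the F-test, so their counts of pairs are a description only.

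Each tumour was also compared with the mean of the other 11. None of the 120 comparisons of the 10 genes passed limma's test at an adjusted p under 0.05. Over all genes, 0.394% of 202215 comparisons passed. Of the 120, 5 had an unadjusted p under 0.05 in limma. Such a threshold passes some of 120 comparisons without any difference, and the same count was not taken over all genes. These 5 are given as a description only. Cdk6 was 2.12 in T135, against 0.33 as the mean of the other 11, a difference of 1.80 ± 0.58 (SE) with an adjusted p of 0.749. Cdk4 was -1.01 in T221, against 0.57, a difference of -1.58 ± 0.56 (SE) with an adjusted p of 0.453, and 1.84 in T920, against 0.31, a difference of 1.53 ± 0.57 (SE) with an adjusted p of 0.306. The others were Rb1 in T172, at -2.00 against -0.66, and Mycn in T920, at 0.44 against -0.02, with adjusted p-values of 0.997 and 0.352.

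Between the genes, 3 of 65 relations over the 12 tumours passed at an adjusted permutation p under 0.05. The relations were the 45 pairs of genes and each gene with the mean of 2 lists, DNA replication genes and Myc target genes. Tested were Pearson's r and Spearman's rho, two-sided, with 100000 resamples and p-values adjusted over the 65, and 2 passed by rho. The median absolute r over the 45 pairs of genes was 0.282.

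Myc and Ccne1 moved together, with r = 0.791 and rho = 0.860 (adjusted permutation p = 0.0496 and 0.0370). T2134, T160, T920, T372 and T55 were high for both, and T176 and T646 low for both. Without the 2 tumours farthest from the median of Myc, T176 and T646, r was 0.660 with an adjusted permutation p of 0.394, and the call was lost in 13 of 16 alternatives. The adjusted p was thus past the threshold only narrowly, and leaving out 1 tumour at a time gave r from 0.745 to 0.850.

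Ccne2 and Cdk4 moved together, with r = 0.818 and rho = 0.804 (adjusted permutation p = 0.0496 and 0.0541). T920 was highest and T221 lowest for both genes, and without these 2 tumours r was 0.675 with an adjusted permutation p of 0.394. The call was kept in 9 of 16 alternatives, and leaving out 1 tumour at a time gave r from 0.745 to 0.890. Ccne1 followed the DNA replication genes, with r = 0.757 and rho = 0.832 (adjusted permutation p = 0.0496 and 0.0370), but r was 0.684 without T646, where both were lowest, with an adjusted permutation p of 0.205, and 0.657 without T646 and T55. Its call was lost in 11 of 16 alternatives.

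Ccnd1 and Ccne1 ran in opposite order, with r = -0.777 and rho = -0.769 (adjusted permutation p = 0.0528 and 0.0541). T55, T2134 and T160 had the lowest Ccnd1 and the highest Ccne1, while T646, T176 and T135 had high Ccnd1 and the lowest Ccne1. This missed the threshold, and r was -0.625 without T2134 and T55. Myc and its target genes gave r = 0.745 (adjusted permutation p = 0.0998), which was not called. Leaving out 1 tumour at a time gave r from 0.686 without T646 to 0.909 without T176, and of 16 alternatives only the one without T176 was called (adjusted permutation p = 0.0182, against 0.0689 to 0.236 in the others). Myc and Mycn gave r = 0.48, and the plot of all pairs shows the rest.

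**Figure D3:**
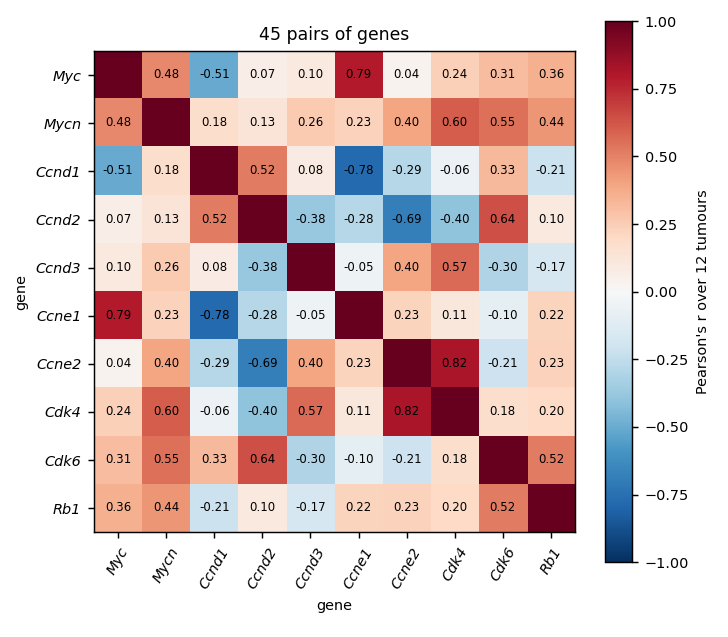
Pearson's r over 12 tumours for the 45 pairs of the 10 genes, from -1 (blue) to 1 (red). Ccne2 with Cdk4 (0.82) and Myc with Ccne1 (0.79) are the highest cells and Ccnd1 with Ccne1 (-0.78) the lowest; Cdk4 with Ccnd1 is near 0.

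**Figure D4:**
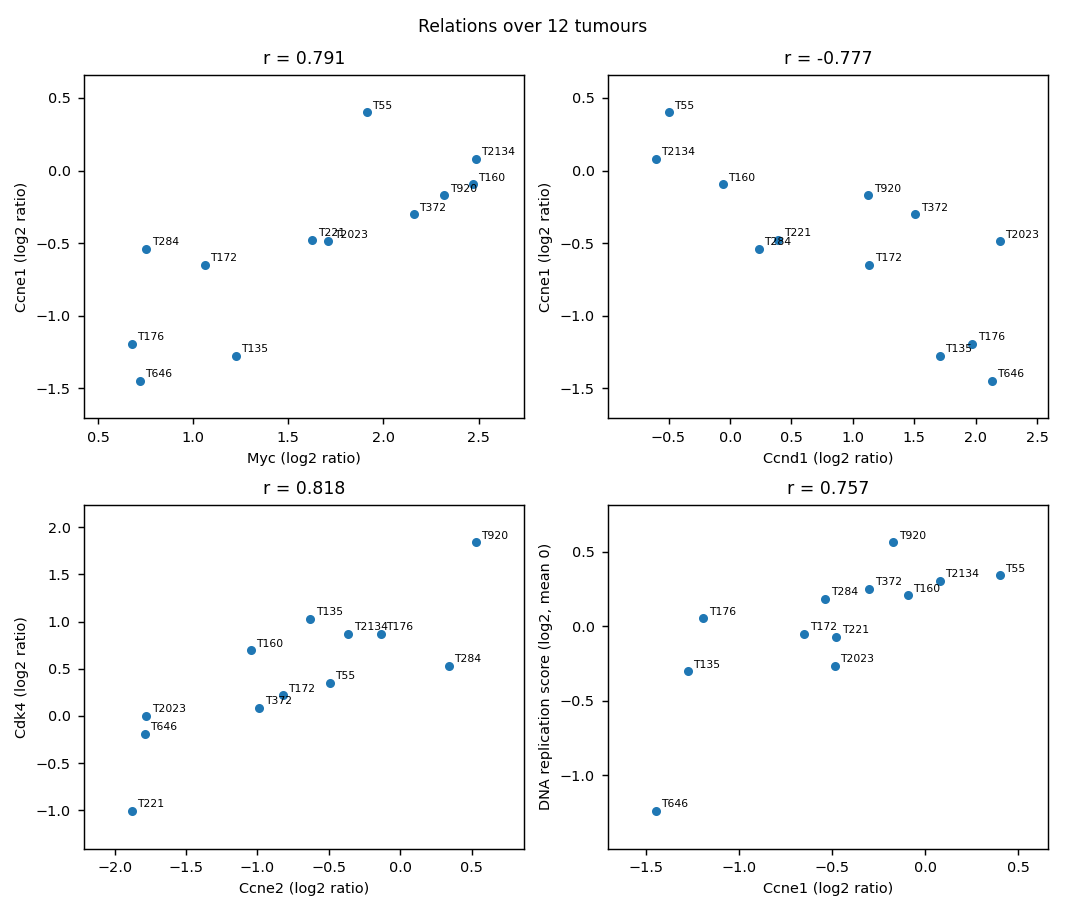
The 12 tumours by log2 ratio for Myc and Ccne1, Ccnd1 and Ccne1, and Ccne2 and Cdk4, and for Ccne1 against the DNA replication score, the mean log2 ratio of its genes with each gene's mean removed. T646 lies lowest on the replication score (-1.24) and T920 at the top of both Ccne2 and Cdk4.

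For the cell types in a tumour, the 10 genes were set against the means of 8 marker lists, in 80 relations added after the data had been seen and adjusted together, of which 1 was called. As the mean of its 2 probes, Cdk6 followed the basal epithelial markers, with r = 0.900 and rho = 0.930 (adjusted permutation p = 0.0040 and 0.0032). The basal score was highest in T2023 (2.15) and T135 (2.15), followed by T221 (1.66) and T372 (0.90), and lowest in T172 (-1.96), T284 (-1.85) and T646 (-1.32). Of its 10 markers 8 differed between tumours, all but Acta2 and Oxtr, and Krt14 was 2.93 in T2023 and -2.61 in T172. Leaving out each tumour in turn gave r from 0.883 to 0.937, every time called. By probe, r was 0.917 for probe 13685 (adjusted permutation p = 0.0008) and 0.592 for probe 16720 (adjusted permutation p = 0.320), so it was called for probe 13685 and not for probe 16720, and the difference between the probes was not tested. Ccnd2 gave r = 0.711 with the macrophage list and 0.698 with the basal list, neither called (adjusted permutation p = 0.284 for both). Myc gave r = 0.559 with the luminal list (adjusted permutation p = 0.284), and T176 was the lowest tumour for both. These r were also taken without the 2 tumours farthest from each gene's median, as a description with no test. They were then 0.922 and 0.873 for Ccnd2, 0.533 for Myc, and 0.895 for Cdk6 with the basal list. The part of cell composition in any of these values was not tested.

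**Figure D5:**
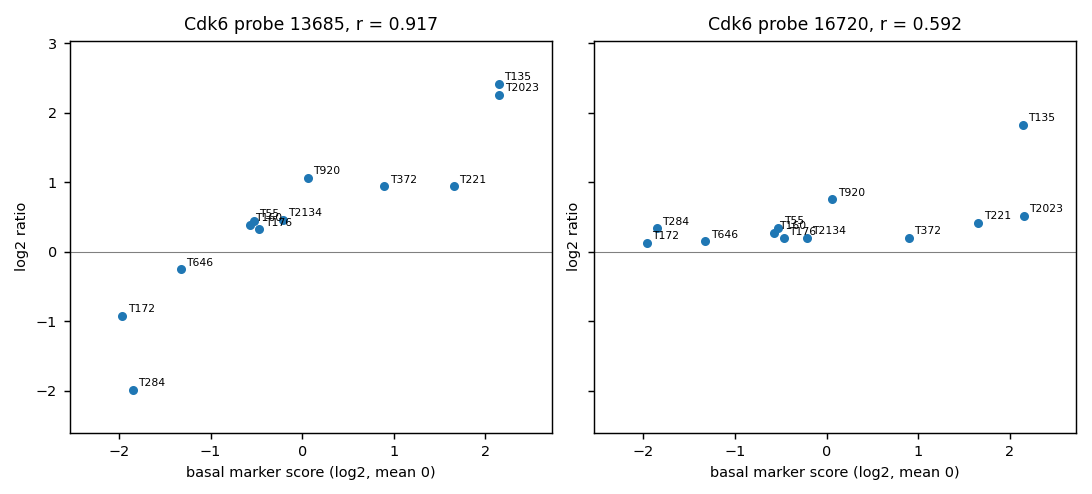
Log2 ratio of each Cdk6 probe against the basal marker score over 12 tumours. Probe 13685 climbs from -1.98 in T284 to 2.42 in T135 along the score (r = 0.917), while probe 16720 lies between 0.13 and 0.76 in all tumours except T135, at 1.83 (r = 0.592).

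The rest of the pathway was read from lists of its genes, by the count called in the F-test beside the 18.4% of all genes. Of the Myc network, a list of Max and related factors, 1 of 11 measured genes was called. This was Mxd4, an antagonist of Myc, at 1.49 in T176 and -1.20 in T2023 (adjusted p = 0.0348). Its call was lost without T176 or T2023, which left 0 called, while 3 of 11 were called without T172, with either single array of T172 left out, or after quantile normalization. Of the Myc targets in growth and ribosome synthesis, 1 of 24 was called, Odc1, the first enzyme of polyamine synthesis, at 0.69 in T2134 and -1.77 in T2023 (adjusted p = 0.0496), and this call was lost in 7 of 22 alternatives. The count of Myc targets was 0 without T176, T2023, T2134 or T55, 2 without T135 or with either single array of T284 left out, 3 without T172, 4 with either single array of T172 left out, and 6 of 24 after quantile normalization. Over all genes the count rose as well, from 3104 to 4017 of 16877 after quantile normalization. It was 3926 of 16819 without T172, and 3980 or 4076 of 16819 with a single array of T172 left out. Max itself ranged from -0.04 in T172 to 1.25 in T135 and was not called (adjusted p = 0.255).

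Of the 7 CDK inhibitors 1 was called, Cdkn2b, which blocks Cdk4 and Cdk6, at 2.20 in T135 and -0.09 in T176 (adjusted p = 0.0403), and it was lost without T135, T176 or T646. Of 11 Rb family and E2F genes 2 were called. E2f2, an activator of S-phase genes, was 0.22 in T135 and -2.60 in T176 (adjusted p = 0.00641), called under every alternative over the tumours. E2f8, a repressor, was 0.75 in T372 and -2.04 in T646 (adjusted p = 0.0302) and was lost without T646. Of 10 genes around Cdk2 and the G1/S boundary 1 was called, Ccna2, the S-phase cyclin, at 0.59 in T920 and -2.44 in T646 (adjusted p = 0.0170), lost without T646 (adjusted p = 0.170).

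Downstream of these, the median SD over tumours was 0.53 for the DNA replication genes and 0.78 for the mitosis genes, beside 0.39 for all genes. Of 20 DNA replication genes 6 were called. The 4 with the widest spread were Rrm2, for the ribonucleotide reductase subunit that supplies deoxynucleotides, Chaf1b, for a histone chaperone subunit, Gins1, for a part of the replicative helicase, and Prim1, for the primase subunit. Rrm2 was 1.04 in T284 and -2.38 in T646, and Prim1 was 0.89 in T920 and -2.11 in T646. Of 14 mitosis genes 11 were called, among them Birc5, Cdc20, Bub1 and Aurkb, regulators of the spindle checkpoint and chromosome segregation. Birc5 was 0.58 in T160 and -2.66 in T646.

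T646 was the lowest tumour for 17 of the 20 replication genes and for all 13 mitosis genes with a value there, Kif11 having none. Without T646 the counts called were 0 of 20 and 1 of 14. Over all genes, 2959 of 16877 were called without T646, against 3104 with it. T646 was also the lowest tumour for Ccne1, and 2nd highest for Ccnd1 and Ccnd2. Its macrophage and lymphocyte scores, 1.33 and 1.22, were the highest of the 12 tumours, 7 of 9 macrophage and 4 of 10 lymphocyte markers differed between tumours, and the part of these cells in its values was not tested.

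The last list holds beta-catenin, other genes of the Wnt pathway, which can induce Ccnd1, and their targets. Of its 10 measured genes 6 were called. Dkk1, a secreted Wnt antagonist, was 4.31 in T176 and at most -1.54 in the others, and its call was lost without T176 (adjusted p = 0.718). Nkd1, a feedback inhibitor, was 1.07 in T372 and -4.10 in T284. Sp5, a transcription factor induced by Wnt signals, was 1.18 in T135 and -2.42 in T172, and Lgr5, a receptor of R-spondins, was 0.57 in T135 and -3.09 in T284, and these 3 kept their call under every alternative over the tumours. Ctnnb1 was highest in T176, at 1.44, and was not called (adjusted p = 0.0786).

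The genes with the pattern most like each of the 10 were taken from 16473 genes by Pearson's r over the 12 tumours, as a description with no test. For Myc they were Ddx20 (r = 0.930), Hspd1 (0.927) and Pde7a (0.918), and for Mycn Zxdb (0.907), Tbc1d17 (0.900) and Olfr401 (0.874). For Ccnd1 they were BC034090 (0.915), Ppp1r15a (0.877) and Sertad2 (0.862), for Ccnd2 Il1r1 (0.935), Sdc1 (0.922) and Fst (0.918), and for Ccnd3 Acin1 (0.936), Ubxn1 (0.896) and Apbb3 (0.875). For Ccne1 they were Uqcrfs1 (0.909), Uchl5 (0.900) and the milk protein gene Wap (0.900), and for Ccne2 Rpa2 (0.971), Hmgn2 (0.925) and Ints14 (0.922). For Cdk4 they were Smarcd1 (0.949), Nsun5 (0.938) and Moap1 (0.930), for Cdk6 Ybx3 (0.952), Pitpnm3 (0.950) and Angel1 (0.936), and for Rb1 Abce1 (0.899), Det1 (0.858) and Cnot6 (0.855). Rpa2 encodes a subunit of the single-strand DNA binding protein used in replication, and it ranged from -0.64 in T646 to 1.03 in T920, without passing the F-test (adjusted p = 0.146 in limma). Smarcd1 encodes a subunit of the SWI/SNF complex, to which Brg1 belongs. It ranged from -0.61 in T221 to 0.91 in T920, without passing the F-test (adjusted p = 0.620 in limma). The highest r of 16473 genes over 12 tumours is high by selection, also for Mycn and Ccnd3, which did not pass the F-test. A link of any of these genes with Brg1 was not tested. Il1r1 and Fst, the interleukin-1 receptor and the activin antagonist follistatin, differed between tumours in the F-test (adjusted p = 0.00590 and 0.000154 in limma).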

How the data were processed

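Of 12 Brg1+/- tumours, 14 two-colour arrays were used. Total RNA came from a Qiagen RNeasy kit, per the labels, and tumour RNA was labelled with Cy5, reference RNA with Cy3. The deposited table holds log2 ratios, as inferred from values between -9.19 and 7.42 that are centred near 0 on every array. How the spots were scanned, background-corrected, normalized and filtered is not stated in the labels or the table. Of 22575 probes 18658 had 1 symbol in the annotation, 30 several and 3887 none. Symbols were updated by Entrez identifier (18445 probes) or accession (24), against RefSeq GRCm38.p6, and 189 were kept. Probes of a gene were averaged, and a gene needed a value on at least 12 arrays, which left 16877 genes. The F-test (limma 3.58.1, R 4.3.3) fitted 12 tumours to 14 arrays, with a prior of 7.27 degrees of freedom. The comparison of 1 tumour with the other 11 assumes that the lone tumour varies like the rest. Relations used 100000 resamples in Python 3.11.15. List scores are means of centred ratios. The fits were tested on simulated data. All members, and up to 4 called genes of each list with the widest SD, are named, with 3 nearest genes per member. Max, Ctnnb1, the markers and the description of Rpa2, Smarcd1, Il1r1 and Fst were added after their values were seen. The members and lists were chosen with earlier results of these data known. Alternatives were quantile normalization, 1 probe per gene, each probe by itself, complete genes, a robust prior, second arrays left out or blocked, and each tumour left out.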

Additional observations from a re-analysis of the deposited data

How the results depend on the processing

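The count of 6 called genes of the 10 stayed between 5 and 8 under all alternatives over the 12 tumours, and between 5 and 7 when each tumour was left out, while the count over all genes lay between 2520 and 3926 without 1 tumour and was 4017 after quantile normalization. With a replicate block for the second arrays, which leaves 1 residual degree of freedom, 8 of the 10 and 7214 genes were called, against 3104 without it. The block also raised the counts of the lists, to 17 of 24 Myc targets, 5 of 11 Myc network genes, 7 of 7 CDK inhibitors, 5 of 11 Rb family and E2F genes, 2 of 10 genes around Cdk2, 17 of 20 replication genes, 14 of 14 mitosis genes and 8 of 10 Wnt genes. Second minus first array correlated at r = 0.326 between T172 and T284 over 16769 genes, which are not independent replicates, and with only 2 pairs the numbers are not shown to pair samples. On the 4 arrays of T172 and T284 alone, 0 of the 10 and 231 genes were called. None of the 10 was called in 1 tumour against the other 11 under any alternative run. Of the 65 relations, 3 were called in the reported fit, 1 without the second arrays, 0 without the 2 farthest tumours, and 0 to 3 when each tumour was left out. The call of Myc was lost without T160, T176, T2134 or T284, and that of Cdk6 for probe 16720. The cause of these changes was not tested, apart from the fewer samples. No signal over background is available here, so dim probes could not be set aside.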
